A study of Danio rerio and Oryzias latipes with 22 samples.

Results

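The genes described here encode the transport machinery of the early secretory pathway. They were taken by name, as every symbol that begins, ignoring case, with *tmed*, *sec*, *kdelr*, *ssr* or *arf* followed by its number or letter, or with *copa*, *copb*, *cope*, *copg* or *copz*. This gave 61 of 28136 zebrafish symbols and 53 of 23832 medaka symbols, 114 of 51968 in all. By role, with zebrafish members before medaka members, they comprise 11 and 10 translocation genes, 11 and 10 COPII coat genes, 11 and 10 p24 cargo receptors, 7 and 8 COPI coat genes, 3 and 3 KDEL receptors, 11 and 6 ARF GTPases, 4 and 3 SEC22 SNAREs, and 3 and 3 SEC14-like genes. The SEC14-like genes fall under the name rule, although they encode lipid-transfer proteins rather than coat subunits.

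Single cells were measured by droplet RNA sequencing of whole heart ventricles from wild-type Tübingen zebrafish and CAB medaka, mostly 6-18 months old. The ventricle apex had been cryoinjured 3 or 14 days before collection (3 and 14 d.p.i.), or the heart was uninjured. Zebrafish gave 3 samples at 3 d.p.i., 6 at the later time and 4 without injury, and medaka gave 3, 2 and 4. Nothing in the labels says whether a sample was 1 fish or a pool, so p-values measure the spread between these samples, which may be partly technical.

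Proteins bound for the cell surface or the extracellular matrix enter the endoplasmic reticulum (ER) through the SEC61 channel, helped by the SSR (TRAP) complex, and leave it in vesicles coated with COPII. COPI vesicles, whose coat is recruited by ARF GTPases, carry escaped ER proteins back from the Golgi, where KDEL receptors bind them. The p24 (TMED) family sits in both kinds of vesicle, and SEC22 SNAREs help the vesicles fuse. Collagen export is a heavy and unusual load on this route. Zebrafish lacking Sec23a or Sec24d have craniofacial skeletal defects in which collagen is held in the ER.

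After filtering at 200 genes and 40% mitochondrial UMIs per barcode (a UMI is a tag that marks 1 captured RNA molecule), 48409 zebrafish and 31729 medaka cells remained. Samples held 1705 to 6039 zebrafish cells and 2751 to 4855 medaka cells, with a median of 974 to 5231 and 1832 to 5821 UMIs per cell. Of 48102 distinct zebrafish barcodes 306 occurred in more than 1 sample, and of 31603 medaka barcodes 126 did. Cells were clustered without the transport genes, and clusters were named "-like" from marker lists. Matrix-producing cells were stromal clusters whose summed collagen I, III, V, VI and XII transcripts, pooled over all times, reached at least 5 times the median cluster. In zebrafish these were 5 epicardial-like clusters with 4973 cells, at 8.48 to 20.87 times the median, and the nearest cluster outside, a mural-like one, stood at 4.26 times. In medaka it was 1 epicardial-like cluster of 766 cells at 10.87 times the median stromal cluster, with the nearest one outside, an endothelial-like cluster, at 3.49 times. In both species the class held every epicardial-like cell and no other cells. Matrix production and epicardial identity therefore cannot be told apart in any contrast of the classes. Medaka 3 d.p.i. replicate 2 held 7 cells of this class and could not be used for it.

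One pair of samples touches every zebrafish time comparison and is set out first. Uninjured replicates 3 and 4 had lower summed transport transcripts than replicates 1 and 2 in all 4 classes studied. In endothelial-like cells the sums were 2463 and 2619 CPM (UMIs scaled to 1000000 non-mitochondrial UMIs of the class in a sample) in replicates 3 and 4, and 4547 and 4966 CPM in replicates 1 and 2. Replicates 1 and 2 also came from an earlier version of the counting program and another gene list, so the pair and the gene list cannot be told apart. A model term for the gene list was kept, which sets injured samples in effect against replicates 3 and 4. Zebrafish time comparisons are therefore also given without that term, which uses all 4 uninjured samples, and without replicates 3 and 4. In both species, counts with a single sample left out come without the share over all genes. They show only how far a count rests on that sample.

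Matrix-producing cells carried the highest summed level of the 4 classes in every sample but 1, a zebrafish sample at 14 d.p.i., and the gap to endothelial-like cells was widest in injured zebrafish at 3 d.p.i. Within a sample, the zebrafish sum in matrix-producing cells was 1.65, 2.74 and 1.95 times that in endothelial-like cells at 3 d.p.i., against 1.02, 1.03, 1.75 and 1.24 times in uninjured hearts. At 14 d.p.i. the 6 ratios ran between 0.968 and 1.265, with a median of 1.123. Uninjured replicate 3, at 1.75, lay above 1 of the 3 samples at 3 d.p.i., so these groups overlap. In medaka the ratio was 1.44 and 1.31 at 3 d.p.i., against 1.099 to 1.326 in uninjured hearts, and the later samples had 1.60 and 1.37. Ratios to cardiomyocyte-like cells were higher in every group, with medians of 1.74, 3.33 and 1.79 in uninjured, 3 d.p.i. and 14 d.p.i. zebrafish, and 1.81, 2.77 and 2.29 in medaka.

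**Figure D1:**
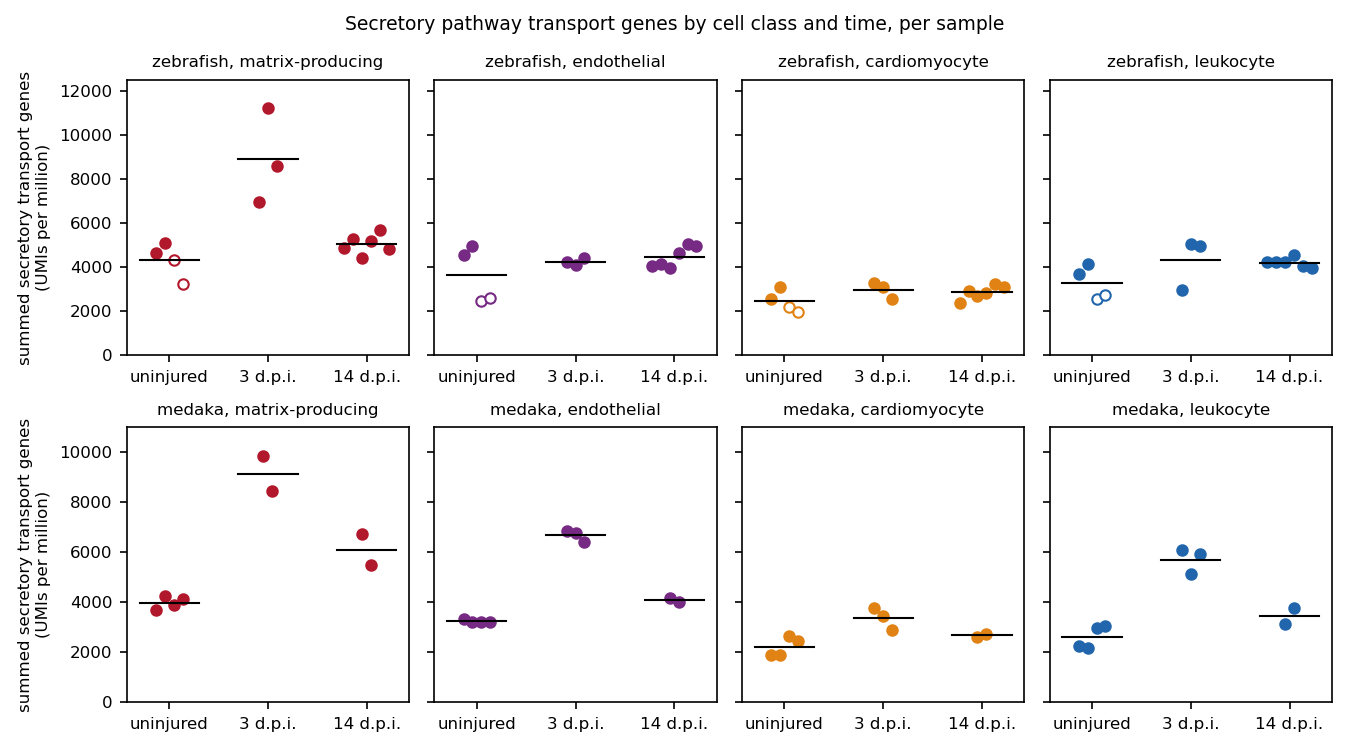
Summed CPM of the transport genes per sample in matrix-producing, endothelial, cardiomyocyte and leukocyte classes of each species, by time point, with each point a sample, horizontal lines the means and open symbols zebrafish uninjured replicates 3 and 4. Zebrafish matrix-producing cells reach 6939 to 11234 CPM at 3 d.p.i. against 3254 to 5100 CPM uninjured, and in medaka all 4 classes stand above their uninjured samples at 3 d.p.i.

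In zebrafish matrix-producing cells 30 of 57 tested members were higher and 9 lower than in endothelial-like cells, averaged over the time points, where 25.2% of all tested genes were higher and 27.3% lower (52.5% in either direction). Against cardiomyocyte-like cells 33 were higher and 12 lower, with 36.8% and 33.2% over all genes (70.0% in either direction). Against leukocyte-like cells 28 were higher and 7 lower, with 31.6% and 25.0% over all genes (56.5% in either direction). The splits between higher and lower moved with the scaling, to 44 and 3 against cardiomyocyte-like cells and 22 and 10 against leukocyte-like cells when libraries were scaled by their totals. A change of scaling shifts all genes, and the shares over all genes under it are not given here. The median member difference from endothelial-like cells was 0.41 on the log2 scale, beside -0.04 for all genes. In uninjured hearts alone the mean sum was higher than in endothelial-like cells for translocation genes (3315 and 2376 CPM) and KDEL receptors (124 and 114 CPM). It was lower for every other role, as with 237 and 289 CPM for COPI genes and 214 and 329 CPM for ARF GTPases.

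Of 11 translocation genes 9 were higher against endothelial-like cells and none lower. *ssr3*, a subunit of the translocon-associated SSR complex, was 1.80 ± 0.18 higher on the log2 scale (± SE, adjusted p = 2.02e-11, edgeR throughout), *ssr4* 1.20 ± 0.17 and *sec61b*, the beta subunit of the channel, 0.97 ± 0.14. All 3 KDEL receptors were higher against each of the other classes. *kdelr3*, which retrieves ER proteins, stood out by class, with 81.8, 256 and 207 CPM in matrix-producing cells at 3 d.p.i., against 18.9, 22.4 and 33.9 CPM in endothelial-like and 1.29, 3.45 and 4.91 CPM in cardiomyocyte-like cells of the same samples. In leukocyte-like cells *kdelr3* was at 0 in all 4 uninjured samples. Over all samples the *kdelr3* level in matrix-producing cells exceeded that in endothelial-like cells by 1.76 ± 0.21 and that in cardiomyocyte-like cells by 4.11 ± 0.24 on the log2 scale (adjusted p = 2.86e-09 and 6.11e-18).

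The COPII coat gave a mixed picture by class. *sec24d*, a cargo-binding subunit of the inner coat, was higher than in endothelial-like cells by 1.76 ± 0.22, and *sec16b*, which marks ER exit sites, by 3.06 ± 0.47 on the log2 scale, although *sec16b* never passed 7.55 CPM. *sec23a*, the partner of Sec24 in the inner coat, was higher than in endothelial-like cells by 0.85 ± 0.16 but lower than in cardiomyocyte-like cells, at -0.42 ± 0.16, and that sign turned to 0.14 when libraries were scaled by their totals. *sec23b*, its paralogue, was lower than in cardiomyocyte-like cells by 1.23 on the log2 scale (-1.23 ± 0.29). Of 11 COPII genes 5 were higher against endothelial-like cells and none lower, while against cardiomyocyte-like cells 3 were higher and 6 lower. All these contrasts average the time points. Mean COPII sums in matrix-producing and endothelial-like cells were 72.3 and 98.2 CPM uninjured, 366 and 111 CPM at 3 d.p.i., and 109 and 91.0 CPM at 14 d.p.i. ARF GTPases split too, with *arf5* higher by 1.31 ± 0.15 than in endothelial-like cells, and *arf6a* and *arf6b*, which act at the plasma membrane, lower at -0.81 ± 0.13 and -0.64 ± 0.16. Symbols such as *arf6a* and *arf6b*, or *kdelr2a* and *kdelr2b*, name duplicated genes, and how reads shared between such copies were counted is uncertain.

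In medaka 19 of 51 tested members were higher and 15 lower in matrix-producing than in endothelial-like cells, where 13.3% of all genes were higher and 25.8% lower. The median of all genes lay at -0.31 on the log2 scale in that contrast, so a member at 0 was already above it. Against cardiomyocyte-like cells 27 were higher and 11 lower, with 20.5% and 28.7% over all genes. Against leukocyte-like cells 21 were higher and 14 lower, with 19.0% and 32.9% over all genes. Without 3 d.p.i. replicate 3 the members past the threshold against endothelial-like cells numbered 21. The splits also depended on the scaling. They became 25 and 2, 33 and 4, and 24 and 7 in that order of classes with DESeq2, and 16 and 16, 39 and 2, and 24 and 5 with library totals. Here too all genes shift with the scaling, and their shares are not given.

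The medaka members highest against endothelial-like cells included *sec24d* at 1.53 ± 0.19, *copz2*, the zeta subunit of the COPI coat, at 1.26 ± 0.21, *ssr3* at 1.19 ± 0.15 and *sec61g*, the gamma subunit of the channel, at 0.96 ± 0.13 on the log2 scale (adjusted p from 6.32e-07 to 4.25e-05). *sec24d*, *ssr3*, *ssr2* and *sec61b* were thus higher against endothelial-like cells in both species, each by its own test. *tmed6*, a p24 member, was lower at -2.80 ± 0.40. It had 0 to 11.4 CPM in matrix-producing cells over the samples, against 11.7 to 34.8 CPM in endothelial-like cells, and it was at most 0.89 CPM in leukocyte-like cells.

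The first question in time was what the transport genes did 3 days after injury in matrix-producing cells of zebrafish. Their summed level was 6939, 11234 and 8574 CPM at 3 d.p.i., against 4631, 5100, 4311 and 3254 CPM in uninjured hearts. Every sample at 3 d.p.i. lay above every uninjured sample, and the means differed 2.06-fold. Of 52 tested members 41 rose and none fell, with 17.1% of all tested genes higher and 17.6% lower. The median member change was 1.87 on the log2 scale, beside 0.01 for all genes. Without the gene-list term 33 rose and 1 fell, with 13% of all genes higher and 12.6% lower. Leaving out uninjured replicates 3 and 4, 27 rose and 1 fell (16.7% and 11.8%). Without replicate 4 alone 22 members were past the threshold. The same 24 members rose under all 3 uses of the uninjured samples, and the member that fell was *sec14l1* in both of those fits (-2.91 without the term and -3.84 without the replicates), at -1.05 ± 1.08 with the term (adjusted p = 0.47). Of all 61 members 9 failed the filter on low counts and were not tested.

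**Figure D2:**
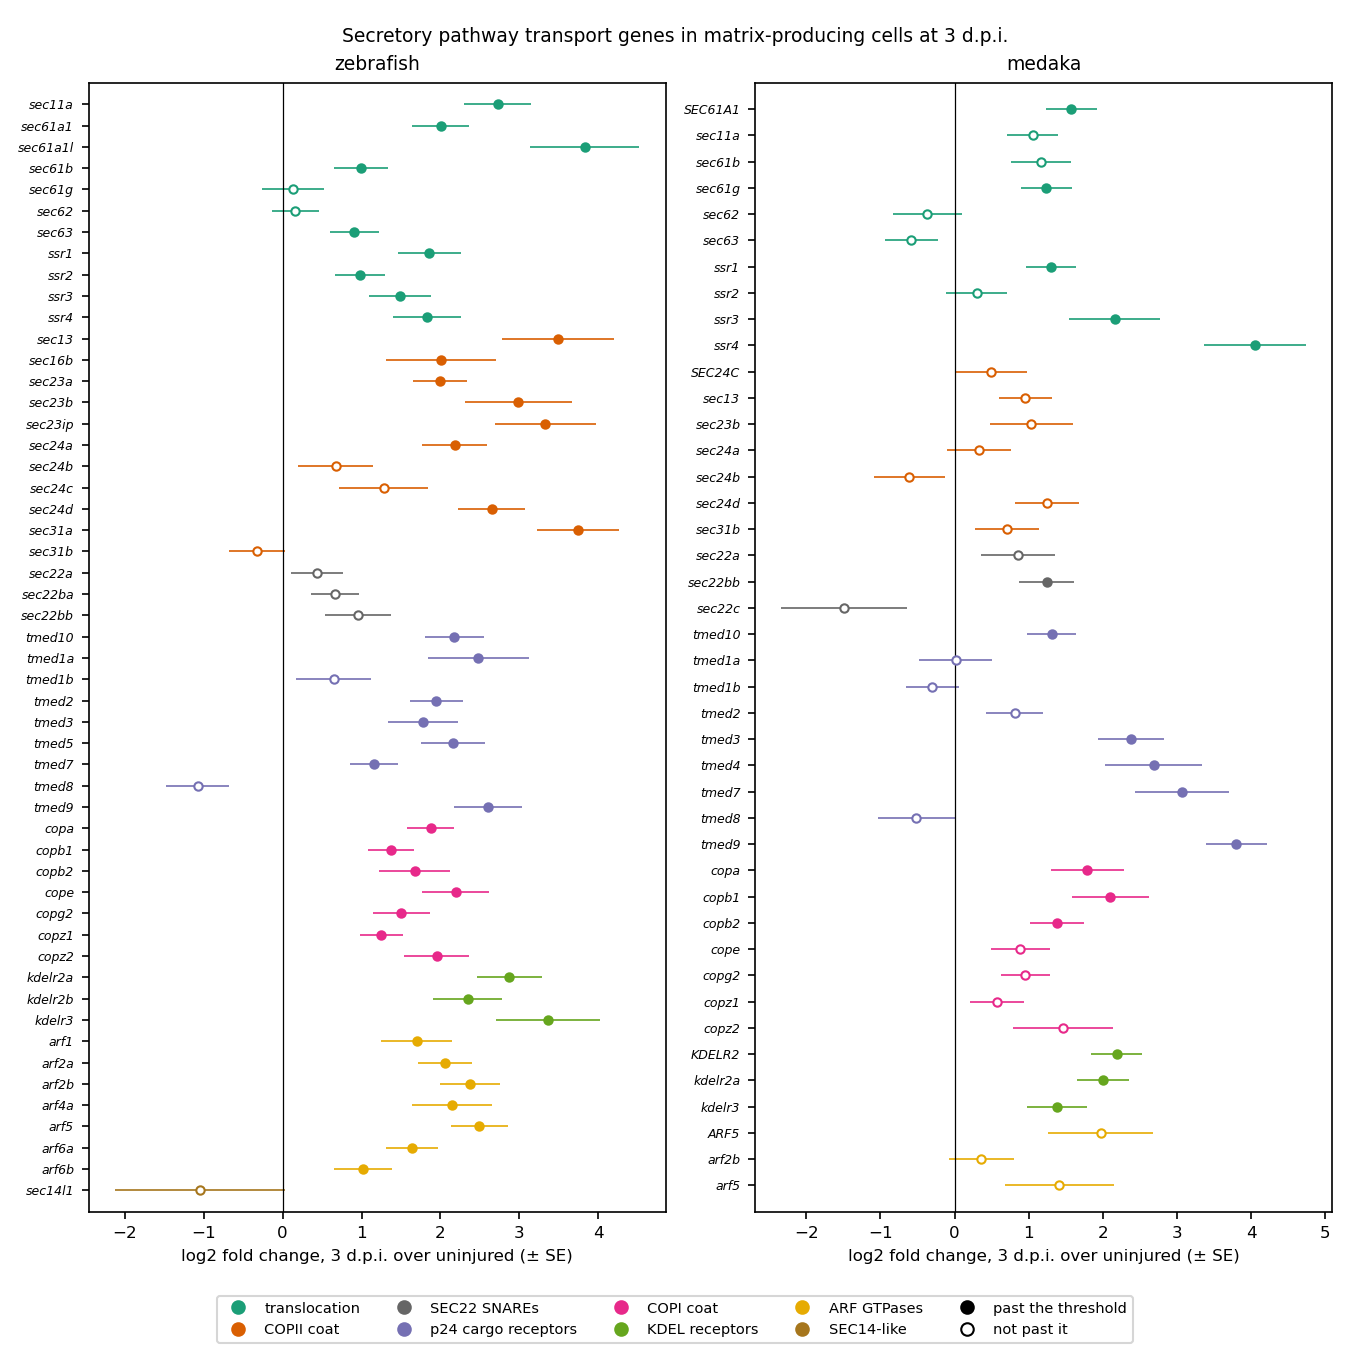
Log2 fold change of each tested transport gene in matrix-producing cells at 3 d.p.i. against uninjured, with its standard error, ordered by role, for zebrafish and medaka, filled where the adjusted p was below 0.05. In zebrafish 41 of 52 members and in medaka 17 of 42 pass, all above 0.

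Other measures of these cells moved with the same comparison. Zebrafish matrix-producing cells held 13100 to 20714 UMIs per cell at 3 d.p.i. against 2995 to 7102 in uninjured hearts, and their collagen sum was 14516 to 25423 CPM against 3332 to 8532 CPM. Clusters entered the class by collagen pooled over all times, so this collagen difference is not independent of that choice. The mean mitochondrial share was 3.95% to 6.35% at 3 d.p.i., against 14.61% and 16.93% in uninjured replicates 1 and 2 and 1.21% and 0.73% in replicates 3 and 4. Haemoglobin transcripts, which free RNA from blood can bring, were at 546 to 8680 CPM at 3 d.p.i., against 6541 and 9646 CPM in uninjured replicates 1 and 2 and 67.9 and 29.5 CPM in replicates 3 and 4. Their part in the result was not tested.

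The outer and inner COPII coat rose together. *sec31a*, a subunit of the outer cage, had 40.0, 61.1 and 52.3 CPM at 3 d.p.i., against 4.34, 8.53, 6.71 and 1.71 CPM in uninjured hearts, and 4.79 to 21.5 CPM at 14 d.p.i. No sample at either of the other times reached the lowest at 3 d.p.i., and the change was 3.74 ± 0.52 on the log2 scale (adjusted p = 0.000222; 3.19 and 2.65 under the other uses of the uninjured samples). *sec24d* had 47.7, 46.4 and 44.8 CPM at 3 d.p.i., against 5.42, 7.47, 9.22 and 5.14 CPM uninjured. The groups were far apart and the replicates close, at 2.65 ± 0.43 (adjusted p = 0.000578). *sec23a* had 73.3, 92.6 and 76.2 CPM at 3 d.p.i., against 11.9, 8.53, 19.3 and 18.1 CPM uninjured, a change of 2.00 ± 0.35. *sec13*, shared by the COPII cage and the nuclear pore, had 61.1, 121 and 98.0 CPM, against 14.1, 16, 13.4 and 4.11 CPM uninjured (3.49 ± 0.71). In all 8 of 11 COPII genes rose with the gene-list term, and *sec13*, *sec16b*, *sec23a*, *sec24a*, *sec24d* and *sec31a* under all 3 uses of the uninjured samples. *sec23b* was among the 8 at 2.99 ± 0.68, but it had 9.95, 10.8 and 12.01 CPM at 3 d.p.i., against 18.4, 10.7, 0.840 and 1.37 CPM uninjured, and its change turned to -0.75 without uninjured replicates 3 and 4.

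The KDEL receptors rose as a whole, with 3 of 3 past the threshold under every use of the uninjured samples. *kdelr3* had 81.8, 256 and 207 CPM at 3 d.p.i., against 8.67, 5.33, 31.01 and 6.51 CPM uninjured, where replicate 3 stood apart from the others and still lay below every injured sample. Its change was 3.36 ± 0.66 (adjusted p = 0.00222). *kdelr2b* had 202, 453 and 296 CPM at 3 d.p.i., against 62.9, 56.5, 83.8 and 39.7 CPM uninjured (2.34 ± 0.44, adjusted p = 0.00146). *kdelr2a* had 167, 279 and 201 CPM, against 66.1, 77.9, 40.2 and 18.1 CPM uninjured (2.87 ± 0.41). Replicate 2 was the highest of the 3 d.p.i. samples for all 3 receptors. Their joint share of the summed level was 8.0% at 3 d.p.i., against 2.9% uninjured and 3.2% at 14 d.p.i.

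All 7 tested COPI genes rose with the gene-list term, and *copa*, *copb1*, *cope*, *copg2* and *copz2* under all 3 uses of the uninjured samples. *cope*, the epsilon subunit of the coat, had 180, 292 and 246 CPM at 3 d.p.i., against 64.0, 68.3, 73.8 and 29.8 CPM uninjured (2.19 ± 0.43, adjusted p = 0.00171). *copa*, the alpha subunit, had 89.3, 119 and 108 CPM, against 32.5, 39.5, 35.2 and 20.2 CPM uninjured (1.88 ± 0.30). *copb2*, the beta-prime subunit, rose by 1.68 ± 0.45, and without uninjured replicates 3 and 4 by 1.19 with an adjusted p of 0.0565, just outside the threshold. Of the ARF GTPases 7 of 7 tested rose, *arf6a* and *arf6b* only with the gene-list term. *arf5* had 184, 244 and 223 CPM at 3 d.p.i., against 84.5, 68.3, 32.7 and 37.7 CPM uninjured, a change of 2.50 ± 0.36 that came to 1.71 and 1.17 under the other uses of the uninjured samples. For *arf2b* the uninjured levels split by gene list, at 4.34 and 3.2 CPM in replicates 1 and 2 and 52.0 and 18.5 CPM in replicates 3 and 4, below 178, 190 and 185 CPM at 3 d.p.i.

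**Figure D3:**
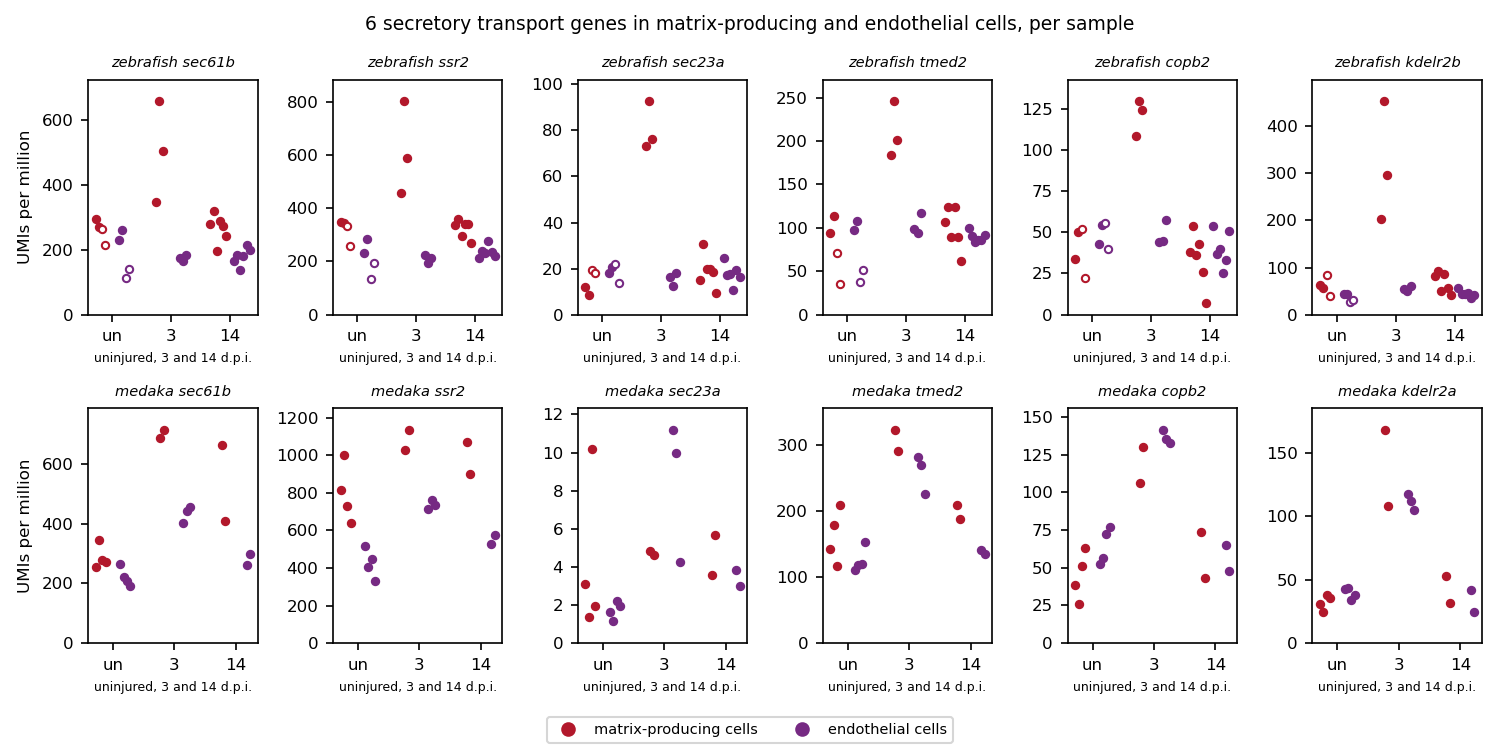
CPM per sample of 6 transport genes in matrix-producing (red) and endothelial (purple) cells at each time point, zebrafish *sec61b*, *ssr2*, *sec23a*, *tmed2*, *copb2* and *kdelr2b* and medaka counterparts with *kdelr2a*, where points are samples and open symbols are zebrafish uninjured replicates 3 and 4. In zebrafish the matrix-producing cells stand highest at 3 d.p.i. for each gene, as with 73.3 to 92.6 CPM of *sec23a* against 8.53 to 19.3 CPM uninjured.

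Of the p24 receptors 7 of 9 tested rose with the gene-list term, and of the translocation genes 9 of 11. Under all 3 uses of the uninjured samples only *tmed1a*, *tmed3*, *tmed9*, *sec11a*, *ssr1* and *ssr4* of these rose. *tmed2* had 184, 246 and 201 CPM at 3 d.p.i., against 94.3, 114, 70.4 and 35.6 CPM uninjured, and *tmed10*, its partner in the p24 complex, 159, 223 and 182 CPM against 77.0, 93.9, 51.1 and 29.1 CPM. The groups did not overlap for either gene, at 1.95 ± 0.33 and 2.18 ± 0.37, but without uninjured replicates 3 and 4 the changes were 0.68 and 0.81 (adjusted p = 0.111 and 0.0995). *ssr4* had 429, 915 and 633 CPM at 3 d.p.i., against 186, 225.1, 256 and 111 CPM uninjured (1.83 ± 0.43) and passed under every use of the uninjured samples. *sec61b* had 348, 659 and 506 CPM, against 294, 270, 265 and 215 CPM uninjured (0.99 ± 0.35, adjusted p = 0.0371), and *ssr2* changed by 0.99 ± 0.32. Neither passed without the gene-list term (adjusted p = 0.0824 and 0.0651). *sec61g*, the most abundant member, had 1493, 2635 and 1746 CPM at 3 d.p.i., against 1962, 2249, 1668 and 1673 CPM uninjured, with overlapping groups and a change of 0.14 ± 0.39. The translocation genes thus made up 61% of the summed level at 3 d.p.i., against 76.7% uninjured and 77.8% at 14 d.p.i.

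By 14 d.p.i. the summed level in zebrafish matrix-producing cells was 4414 to 5696 CPM, with a median of 5017 CPM, and overlapped the uninjured range. Their collagen sum did not follow it. It was 17342, 23916, 16212, 15976, 16335 and 4342 CPM at 14 d.p.i., against 3332 to 8532 CPM uninjured. In replicate 5 the cells of 1 cluster of the class (cluster 16, below) reached 67572 CPM. Of 52 members 4 rose and none fell, with 1.72% of all genes higher and 1.95% lower (3.67% in either direction). None passed without uninjured replicate 3 or without replicate 4. These were *sec31a* (2.101 ± 0.49), *arf5* (1.23 ± 0.32), *sec61a1*, the channel's pore subunit (1.45 ± 0.33), and the p24 gene *tmed1a* (2.48 ± 0.62). *tmed1a* alone passed under all 3 uses of the uninjured samples, at 0 to 11.5 CPM at 14 d.p.i. and 0 to 1.68 CPM uninjured. Without uninjured replicates 3 and 4 the changes of *arf5* and *sec61a1* turned to -0.09 and -0.39, and 9 members rose and 4 fell, with 12.9% of all genes higher and 7.58% lower.

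The matrix-producing class of zebrafish joins 5 clusters whose shares differed between the times, and 1 of them stood out by its summed transport level. Cluster 17, led by *postnb*, *col12a1b* and *mdka*, made up 14.9% to 32.4% of the class at 3 d.p.i. and 3.2% to 18.5% in uninjured hearts. Its summed transport level was 9371, 14395 and 11944 CPM at 3 d.p.i., against 5001, 3932 and 3382 CPM in the 3 uninjured samples with at least 10 of its cells. Cluster 12, led by *hapln1a* and *dpt*, made up 9.3% to 12.5% of the class at 3 d.p.i. and 34.2% to 49.2% uninjured. Its transport sums overlapped, at 4229, 4444 and 5594 CPM at 3 d.p.i. against 4945, 5246, 4427 and 3424 CPM uninjured. Its collagen sums did not, at 14107, 22126 and 20990 CPM at 3 d.p.i. against 9130, 10602, 6867 and 4342 CPM uninjured. Cluster 16, led by *col10a1b* and *paplnb*, made up 51.1%, 31.3% and 53.5% of the class at 3 d.p.i. and 9.5% to 23.4% uninjured. Its collagen sum was 5880 to 8176 CPM at 3 d.p.i. and 1261 to 3724 CPM uninjured, where endothelial-like cells had 984 to 1481 CPM. At 14 d.p.i. its collagen sum was 67572 CPM in replicate 5 and 3942 to 8729 CPM in the other samples. Replicate 5 counted in the pooled level that put the cluster in the class. The transport sum of cluster 16 was 5962, 8595 and 7135 CPM at 3 d.p.i., against 4938, 4577, 3329 and 3448 CPM uninjured. Cluster 15, led by *si:ch211-106h4.12* and *adh8a*, had transport sums of 5011, 8053 and 6757 CPM against 4660, 5291, 4539 and 3202 CPM. Cluster 29, led by *zgc:194627* and the proliferation genes *kpna2* and *top2a*, had 6618, 8830 and 6387 CPM, against 3875 and 2267 CPM in the uninjured samples with enough cells. Its collagen sums in those uninjured samples were 2273 and 808 CPM, against 9804 to 17342 CPM at 3 d.p.i. The difference in transport sums between 3 d.p.i. and uninjured samples was thus widest in cluster 17 and not seen in cluster 12. These are descriptions without a test, since genes that change with injury, other than the transport genes, helped to define the clusters.

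**Figure D4:**
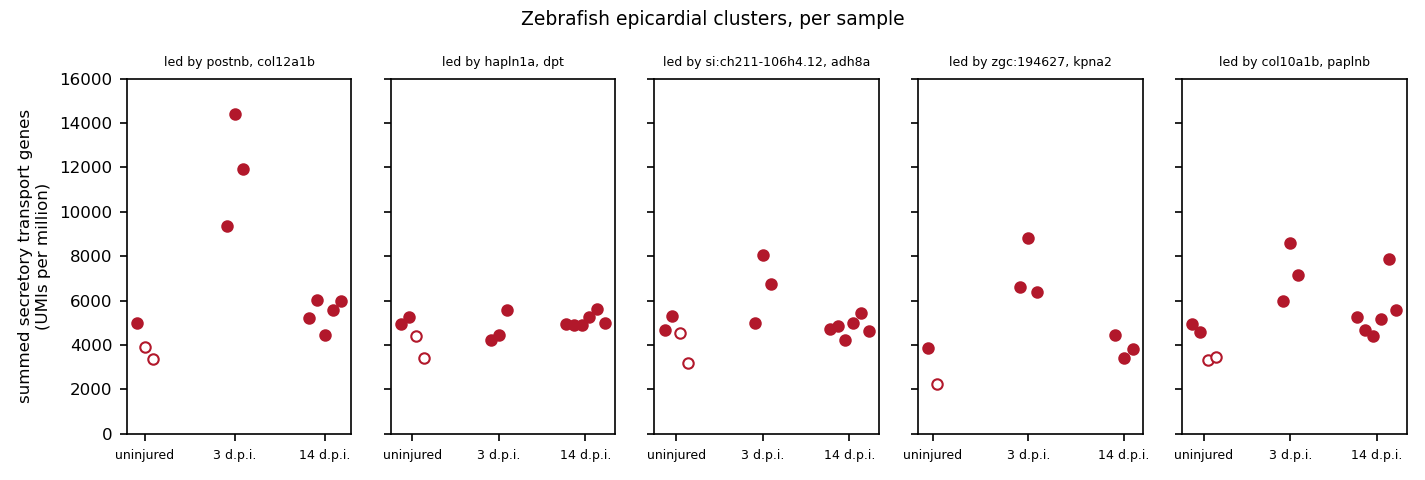
Summed CPM of the transport genes per sample in the zebrafish epicardial-like clusters that form the matrix-producing class, by time point, each panel headed by the leading genes of its cluster, with points for samples of at least 10 of its cells and open symbols for uninjured replicates 3 and 4. Cluster 17 (*postnb*) reaches 9371 to 14395 CPM at 3 d.p.i. against 3382 to 5001 CPM uninjured, while cluster 12 (*hapln1a*) stays at 4229 to 5594 CPM against 3424 to 5246 CPM.

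Whether the 3 d.p.i. change was larger in matrix-producing than in endothelial-like cells was tested as an interaction within samples. In zebrafish 18 of 57 members had a larger change in matrix-producing cells and none a smaller one, with 2.37% of all genes larger and 2.15% smaller (4.53% in either direction). The median member difference was 1.11 on the log2 scale, beside 0.07 for all genes. By role these were 5 of 7 COPI genes, 4 of 11 COPII genes, 3 of 3 KDEL receptors, 3 of 11 translocation genes, 2 of 9 ARF GTPases, 1 of 4 SEC22 SNAREs and none of 10 p24 receptors. Without 3 d.p.i. replicate 2, which had the highest sum in matrix-producing cells, 2 members passed. Without uninjured replicates 3 and 4 28 passed, with 3.79% of all genes larger and 2.1% smaller.

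*sec23a* had the smallest adjusted p, with an interaction of 2.53 ± 0.42 (adjusted p = 0.000695). In endothelial-like cells it had 16.3, 12.4 and 18.1 CPM at 3 d.p.i., against 17.9, 20.9, 22.1 and 13.9 CPM uninjured, beside the rise in matrix-producing cells given above. *sec31a* had 12.4, 9.11 and 13.9 CPM in endothelial-like cells at 3 d.p.i., against 7.72, 7.80, 9.54 and 3.27 CPM uninjured, and an interaction of 2.59 ± 0.58. *copb1*, the beta subunit of COPI, had 67.4, 87.4 and 87.5 CPM in matrix-producing cells at 3 d.p.i., against 26.0, 24.5, 34.4 and 24.7 CPM uninjured, while its endothelial-like levels overlapped at 30.6, 30.6 and 41.8 CPM against 37.7, 38.7, 45.8 and 33.5 CPM (interaction 1.60 ± 0.33). The interaction of *kdelr2b* was 1.67 ± 0.42 and that of *kdelr3* 1.92 ± 0.53.

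In the other zebrafish classes the call itself hung on the uninjured pair. In endothelial-like cells the sums were 4216, 4094 and 4402 CPM at 3 d.p.i. and 3960 to 5049 CPM at 14 d.p.i., against 4547, 4966, 2463 and 2619 CPM uninjured, and they overlapped. With the gene-list term 26 of 54 members rose at 3 d.p.i. and 23 rose by 14 d.p.i., none fell, and 11.8% and 9.08% of all genes were higher, beside 10.2% and 7.77% lower. Without replicate 3 alone 13 members passed at 3 d.p.i. and 1 passed by 14 d.p.i., and without replicate 4 alone 13 passed at 14 d.p.i. Without the gene-list term 4 and 2 rose (1.72% and 0.945% of all genes higher). Without replicates 3 and 4 10 rose and 11 fell at 3 d.p.i. (16.8% and 11.7% of all genes), and 7 rose and 28 fell by the later time (19.1% and 14.4%). No direction can be given for this class as a whole.

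Cardiomyocyte-like cells gave 12 higher members of 52 at 3 d.p.i. (5.98% of all genes, beside 7.43% lower), and 5 higher and 1 lower at 14 d.p.i. (5.27% and 5.29%). Without the gene-list term these became 1 and 0 higher (0.495% and 0.356% of all genes). Without replicates 3 and 4 they became 10 higher and 12 lower at 3 d.p.i. (21.6% and 12.2% of all genes), and 9 higher and 25 lower by the later time (23.6% and 14.9%). At 3 d.p.i. 2 passed without replicate 3, 0 without replicate 4 and 5 without 3 d.p.i. replicate 2. Leukocyte-like cells gave 6 and 1 higher members of 41 (6.88% and 1.18% of all genes, and 3.13% in either direction at the later time), and none lower. Without the term 2 and 0 were higher (3.06% and 0.138% of all genes). Without replicates 3 and 4 there were 5 and 4 higher (6.81% and 6.74%) with 1 lower each (4.40% and 3.23%). At 3 d.p.i. 17 leukocyte members passed without replicate 1 of that time, 3 without its replicate 2, 1 without its replicate 3 and 0 without uninjured replicate 3 or 4. Leukocyte-like sums were 2965, 5038 and 4982 CPM at 3 d.p.i., against 3677, 4136, 2559 and 2735 CPM uninjured, and overlapped. B lymphocyte-like cells, at 2021 to 2467 CPM, numbered 185, 17 and 36 of the 351, 132 and 196 leukocyte-like cells at 3 d.p.i. The part of this in the result was not tested. Sums in cardiomyocyte-like cells were 3278, 3091 and 2574 CPM at 3 d.p.i., against 2545, 3095, 2195 and 1952 CPM uninjured, and overlapped.

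**Figure D5:**
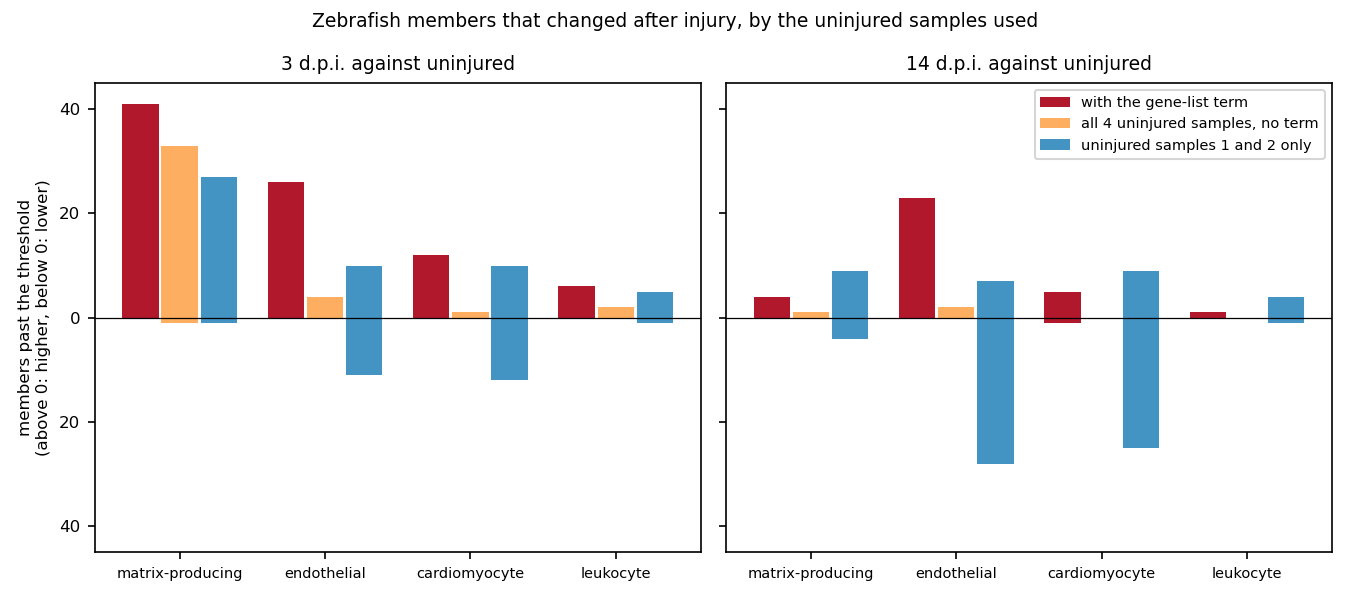
Number of transport genes higher and lower at 3 and 14 d.p.i. in each zebrafish class when the uninjured samples were used with the gene-list term, without it, and without replicates 3 and 4. Matrix-producing cells at 3 d.p.i. keep 41, 33 and 27 higher members, while endothelial cells go through 26, 4 and 10 higher with 0, 0 and 11 lower.

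In medaka the summed level was higher at 3 d.p.i. in every class, not in the matrix-producing one alone. Member by member few passed in cardiomyocyte-like cells, 2 of 46, beside 2.22% of all genes higher. The median member change there was 0.35 on the log2 scale, beside -0.09 for all genes, with 126, 38 and 56 cells in the samples. In matrix-producing cells the sums were 9860 and 8434 CPM at 3 d.p.i. and 6718 and 5505 CPM at 14 d.p.i., against 3680, 4270, 3879 and 4132 CPM uninjured. In endothelial-like cells they were 6850, 6763 and 6426 CPM at 3 d.p.i. and 4189 and 4019 CPM at 14 d.p.i., against 3348, 3221, 3216 and 3202 CPM uninjured. In leukocyte-like cells they were 6089, 5133 and 5918 CPM at 3 d.p.i., against 2272, 2169, 2976 and 3068 CPM uninjured, and in cardiomyocyte-like cells 3759, 3448 and 2897 CPM against 1912, 1901, 2640 and 2439 CPM. No class overlapped at 3 d.p.i., with ratios of the means of 2.29, 2.06, 2.18 and 1.52. At 14 d.p.i. the ratios were 1.53, 1.26, 1.32 and 1.20, and only cardiomyocyte-like cells overlapped. Medaka matrix-producing cells held 7166 to 33994 UMIs per cell at 3 d.p.i. against 3974 to 8033 uninjured, endothelial-like cells 13538 to 21521 against 3329 to 7217, cardiomyocyte-like cells 14011 to 19649 against 7455 to 17496, and leukocyte-like cells 5319 to 7884 against 2659 to 3887. In leukocyte-like cells ribosomal protein transcripts made up 18.68% to 21.48% of UMIs at 3 d.p.i., against 29.84% to 53.0% uninjured. The part of these in the result was not tested. The collagen sum of matrix-producing cells was 2396 to 3242 CPM at 3 d.p.i., inside the uninjured range of 2274 to 3381 CPM, and 4838 to 10078 CPM at 14 d.p.i.

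Of 42 members tested in medaka matrix-producing cells 17 rose at 3 d.p.i. and none fell, with 9.69% of all genes higher and 8.97% lower. The 2 samples held 29 and 19 such cells, and without replicate 3 of that time 6 members passed and without replicate 1 7. A looser matrix threshold of 3 times the median, which also took endothelial-like cells into the class, gave 30 higher and 1 lower. The share over all genes under that threshold is not given here. In endothelial-like cells 35 of 50 rose and 1 fell (17.3% and 15.6% of all genes), in leukocyte-like cells 22 of 47 rose and 1 fell (11.4% and 11.8%), and in cardiomyocyte-like cells 2 of 46 rose (2.22%). At 14 d.p.i. 1 member rose in matrix-producing cells (0.707% of all genes), 2 in endothelial-like cells (1.62%), 1 in cardiomyocyte-like cells (0.214%) and 1 in leukocyte-like cells (0.634%). Without either sample of that time 1 passed in endothelial-like cells, and without its replicate 2 none did in leukocyte-like cells. In cardiomyocyte-like cells at 3 d.p.i. 1 passed without replicate 1 or 2 of that time.

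*tmed9*, a p24 receptor of the early secretory pathway, had the smallest adjusted p in each medaka class and passed the test in all 4 classes at both times. By 14 d.p.i. that call was lost in matrix-producing, cardiomyocyte-like and leukocyte-like cells when single samples were left out or when libraries were scaled by their totals. In matrix-producing cells it had 428 and 229 CPM at 3 d.p.i. and 138 and 91.5 CPM at 14 d.p.i., against 12.4, 18.9, 33.0 and 27.5 CPM uninjured, a change of 3.80 ± 0.41 and 2.49 ± 0.40 on the log2 scale (adjusted p = 0.00123 and 0.0228). In endothelial-like cells it had 241, 285 and 174 CPM at 3 d.p.i., against 12.9, 7.60, 12.6 and 9.99 CPM uninjured (4.39 ± 0.25, adjusted p = 3.50e-05). Cardiomyocyte-like cells had 76.5, 68.8 and 70.9 CPM at 3 d.p.i., against 7.78, 5.11, 14.1 and 12.3 CPM uninjured (2.68 ± 0.23). Leukocyte-like cells had 146, 103 and 97.6 CPM, against 9.45, 7.67, 15.9 and 23.1 CPM uninjured (2.53 ± 0.22). The levels at 14 d.p.i. lay between those of the other times in each class.

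The KDEL receptors rose in medaka matrix-producing cells as well, 3 of 3. *KDELR2* had 217 and 214 CPM at 3 d.p.i., against 42.5, 32.4, 43.2 and 60.9 CPM uninjured (2.19 ± 0.35, adjusted p = 0.00481), and *kdelr2a* 168 and 108 CPM against 31.1, 24.3, 38.1 and 35.4 CPM (2.00 ± 0.35). In endothelial-like cells the same receptors rose by 2.08 ± 0.23 and 1.46 ± 0.22. *ssr4* was low before injury, with 111 and 44.9 CPM in matrix-producing cells at 3 d.p.i., against 2.07, 4.06, 7.62 and 3.93 CPM uninjured (4.05 ± 0.69), and 46.2, 51.8 and 20.2 CPM in endothelial-like cells against 4.93, 4.18, 4.64 and 4.75 CPM (3.04 ± 0.30). *sec61g* rose in medaka, with 2565 and 1751 CPM at 3 d.p.i., against 749, 903, 805 and 940 CPM uninjured (1.24 ± 0.34, adjusted p = 0.0307). Its change in endothelial-like cells was 1.49 ± 0.23 at 3 d.p.i. and stood at 1.48 ± 0.25 by 14 d.p.i.

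COPI genes rose in both main medaka classes, 3 of 7 in matrix-producing and 6 of 7 in endothelial-like cells. *copb1* had 52.9 and 35.6 CPM in matrix-producing cells at 3 d.p.i., against 12.4, 4.06, 10.2 and 9.83 CPM uninjured (2.102 ± 0.51), and *copa* rose by 1.79 ± 0.49 there and by 1.86 ± 0.20 in endothelial-like cells. The COPII genes differed between the classes in their counts, with none of 7 past the threshold in matrix-producing cells and 6 of 10 in endothelial-like cells, which numbered 149 to 1641 per sample. The mean COPII sum was higher at 3 d.p.i. in both, at 570 against 304 CPM uninjured in matrix-producing and 577 against 380 CPM in endothelial-like cells. *sec24d* had 101 and 175 CPM in matrix-producing cells at 3 d.p.i., against 75.6, 40.6, 63.5 and 37.4 CPM uninjured (1.25 ± 0.43, adjusted p = 0.0645). In endothelial-like cells *sec24d* had 81.0, 113 and 84.4 CPM, against 20.6, 18.6, 21.5 and 25.4 CPM uninjured (2.09 ± 0.26, adjusted p = 0.000682), and in leukocyte-like cells it rose by 1.64 ± 0.25. *sec23a*, which rose in zebrafish matrix-producing cells, was not tested for its change in time in those of medaka, where it had 4.81 and 4.64 CPM at 3 d.p.i. and 1.35 to 10.2 CPM uninjured. The member that fell in medaka endothelial-like and leukocyte-like cells was *sec22c*, a SEC22 family member, at -0.70 ± 0.21 and -0.90 ± 0.25.

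The interaction found no member in medaka, whether larger or smaller, with 0.435% and 0.642% of all genes passing. It rests on 2 samples of matrix-producing cells at 3 d.p.i., with 29 and 19 cells, so a difference could be missed. At an unadjusted p under 0.05 there were 5 members, DESeq2 also found 0, and the higher clustering resolution gave 6 larger. *tmed3*, a p24 gene, had the value 1.64 ± 0.51 (adjusted p = 0.131), and the median over members was 0.18, beside -0.12 for all genes. The zebrafish interaction was not tested against the medaka one, so the species are given side by side only.

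Sums by cell type are given without a test. In medaka, thrombocyte-like cells, which lie outside the 4 classes, had 5658 to 7196 CPM at 3 d.p.i. and 3700 to 4536 CPM at 14 d.p.i., against 3124 to 4388 CPM uninjured. The leukocyte-like class of medaka joins several types whose numbers differed between the times. T or NK lymphocyte-like cells, whose sums were the lowest of the class in uninjured hearts, numbered 12, 10 and 30 of its 525, 348 and 412 cells at 3 d.p.i., against 526, 873, 490 and 206 of 871, 1275, 1186 and 896 cells uninjured, and the part of this in the result for the class was not tested. Within types the sums were also apart, at 5595 to 6665 CPM at 3 d.p.i. against 3481 to 3664 CPM uninjured in macrophage-like cells, 4771 to 5708 CPM against 2304 to 3286 CPM in granulocyte-like cells, and 3854 to 4214 CPM against 1604 to 2404 CPM in T or NK lymphocyte-like cells. In both species erythroid-like cells had the lowest uninjured sums, at 384 to 460 CPM in the 2 zebrafish samples with enough of them and 552 to 831 CPM in medaka. At 3 d.p.i. they had 957 to 1349 CPM in zebrafish and 938 to 1546 CPM in medaka, with no overlap. In zebrafish, thrombocyte-like cells overlapped, with 3416 to 4704 CPM at 3 d.p.i. against 3339 to 4201 CPM uninjured, and so did macrophage-like cells, with 4299 to 5993 CPM against 2520 to 4571 CPM.

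Partner genes of the pathway, from lists that the name rule does not hold, moved with the transport genes in zebrafish matrix-producing cells at 3 d.p.i. The counts come only from the fit with the gene-list term, in effect against uninjured replicates 3 and 4. In that fit 17.1% of all genes were higher and 17.6% lower. Of COPII and ER exit partners 16 of 21 rose and 1 fell, of translocation and glycosylation partners 20 of 27 rose and none fell, of collagen folding enzymes 15 of 22 rose and none fell, and of Golgi and COPI partners 14 of 34 rose and 1 fell. *tfg*, which organises ER exit sites, rose by 3.30 ± 0.40 (adjusted p = 9.99e-05), *surf4l*, an ER export receptor, by 3.12 ± 0.53, and *tram1*, a translocon partner, by 3.01 ± 0.52. The collagen prolyl hydroxylase genes *p4ha2* and *p3h1* rose by 4.49 ± 0.69 and 3.21 ± 0.40. Of 11 tested regulators of the unfolded protein response 4 rose and 1 fell, among them *atf4a* (2.09 ± 0.37) and *atf6* (1.29 ± 0.35). In zebrafish endothelial-like cells, also with the gene-list term, 15 of 27 translocation and glycosylation partners rose and none fell. Of collagen folding enzymes 10 of 21 rose and 1 fell, and of COPII partners 9 of 21 rose and 2 fell. Of Golgi partners 9 of 34 rose and 3 fell, beside 11.8% of all genes higher and 10.2% lower.

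In medaka matrix-producing cells at 3 d.p.i. 11 of 21 translocation and glycosylation partners, 7 of 19 collagen folding enzymes, 6 of 14 COPII partners and 1 of 20 Golgi partners rose, and none of these fell. Over all genes 9.69% were higher and 8.97% lower. *lman1*, a cargo receptor for ER export, rose by 3.72 ± 0.42 (adjusted p = 0.00149), *krtcap2*, an oligosaccharyltransferase subunit, by 3.44 ± 0.63 and *p4hb*, protein disulphide isomerase, by 2.09 ± 0.39. None of 5 unfolded protein response regulators rose and *ddit3*, which encodes CHOP, fell (-2.18 ± 0.62, adjusted p = 0.0347). In medaka endothelial-like cells 23 of 25 translocation and glycosylation partners, 10 of 20 collagen folding enzymes, 9 of 17 COPII partners and 5 of 25 Golgi partners rose, with 1 Golgi partner lower. There 17.3% of all genes were higher and 15.6% lower.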

How the data were processed

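The deposited files hold whole UMI counts for each gene in each barcode, with no normalization. The authors made them with Cell Ranger, and the file headers give version 3.1.0 for zebrafish uninjured replicates 1 and 2 and 5.0.0 for the others. The labels name the zebrafish build GRCz11. The study's methods name ASM223467v1 for medaka. Genes were joined by symbol. Barcodes with at least 200 genes and at most 40% mitochondrial UMIs were kept, in 22 samples. The members and gene lists were chosen with earlier results of these data known.

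Within a species, samples were joined by Seurat 5.3.0 integration under R 4.3.3 (2000 variable genes, 30 dimensions, without members, partner genes and mitochondrial genes) and clustered with leidenalg 0.10.2 in scanpy 1.11.5 at a resolution of 1.5 with 20 neighbours. Clusters were named from marker lists with at least 3 markers. Matrix-producing clusters were epicardial-like, mural-like or endothelial-like ones. Their collagen CPM, pooled over all times, had to reach at least 5 times the median of the species' named clusters. In medaka that median was near 0 (19.6 CPM), so the median of the stromal clusters (443.0 CPM) was used instead, a choice made after seeing the data. Zebrafish cluster 13 (endothelial-like, led by markers of another list) and cluster 19 (cardiomyocyte-like, over 2 times the median) were left out of their classes. Scrublet's own threshold marked at most 1% of cells, so the top-scoring cells were removed only in an alternative.

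UMI counts were summed per sample and class with at least 10 cells and tested with edgeR 4.0.16 (quasi-likelihood, robust, TMM, filterByExpr), Benjamini-Hochberg adjusted over all genes, threshold 0.05. Errors of log2 changes were taken as the change over the square root of F. Zebrafish time fits had a term for the gene list. Class contrasts and the interaction came from a joint fit with sample as a block. Genes were named by rule: up to 8 members with the smallest adjusted p in each direction, the 3 largest changes, a fixed set of subunits, and up to 3 genes per partner list. Members named for being the only ones to fall, and *tmed3* in the medaka interaction, were chosen after their values were seen. For zebrafish endothelial-like, cardiomyocyte-like and leukocyte-like time contrasts only counts are given. The fits were tested on simulated data. DESeq2 1.42.0 was an alternative, as were library totals, no filter, another resolution, a 3-fold matrix threshold, doublets, a 15% mitochondrial limit, a replicate block and leaving out each sample. No sequences are shown.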

Additional observations from a re-analysis of the deposited data

Results flagged for a closer look

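In 73 groups of at least 4 samples the highest or lowest sample was compared with the rest. In 3 groups it stood apart, about as often as the 1 in 20 that chance gives. These were the summed transport level of medaka uninjured endothelial-like cells, where 1 of 4 samples had 3348.0 CPM, zebrafish *kdelr3* in uninjured matrix-producing cells, where replicate 3 of 4 had 31.01 CPM, and zebrafish *sec22bb* in matrix-producing cells at 14 d.p.i., where 1 of 6 samples had 16.5 CPM.

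The change at 3 d.p.i. was larger in zebrafish matrix-producing than in endothelial-like cells by the interaction test for 18 members, of which those named by the rule are given with the difference on the log2 scale. Among COPII genes it was 2.53 for *sec23a*, 2.84 for *sec23ip*, 2.59 for *sec31a* and 2.24 for *sec13*. Among COPI genes it was 1.60 for *copb1*, 1.44 for *cope*, 1.52 for *copa* and 1.53 for *copb2*. Among KDEL receptors it was 1.81 for *kdelr2a*, 1.67 for *kdelr2b* and 1.92 for *kdelr3*. Among the other roles it was 2.34 for *sec61a1l* and 1.68 for *sec22ba*. Without 3 d.p.i. replicate 2 only 2 members passed this test.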

How the results depend on the processing

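Counts of members past the threshold stayed within 1.5 times the main count in 376 of the comparisons run with an alternative and moved further in 96. For single members 4635 values kept their direction and side of the threshold, 400 kept the direction but lost the call, and 16 reversed. The cause was not tested in any of these. Except where shares are printed, counts under an alternative or with a sample left out come without the share over all genes. Such counts do not tell whether members moved more than all genes did. The smallest groups set the limits: 2 medaka samples at 14 d.p.i. and 2 with enough matrix-producing cells at 3 d.p.i.

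In zebrafish matrix-producing cells at 14 d.p.i., 4 members became 8 with DESeq2, 2 with library totals, 1 without the gene-list term and 13 without uninjured replicates 3 and 4. The larger change at 3 d.p.i. than in endothelial-like cells went from 18 to 28 without those replicates, with 2.37% and 3.79% of all genes larger. Endothelial-like cells gave 15 with library totals at 14 d.p.i., 4 and 2 without the gene-list term at 3 d.p.i. and the later time, and 35 at 14 d.p.i. without replicates 3 and 4. Cardiomyocyte-like cells gave 22 at 3 d.p.i. with library totals, 1 and 0 without the term, and 22 and 34 without replicates 3 and 4. Leukocyte-like cells gave 10 at 3 d.p.i. at the higher clustering resolution, 2 and 0 without the term, and at 14 d.p.i. 0 with no filter and 5 without replicates 3 and 4.

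In medaka matrix-producing cells at 3 d.p.i., 17 members became 34 at the higher clustering resolution, 31 with the 3-fold matrix threshold and 36 with the matrix rule over all named clusters. At 14 d.p.i. 1 became 2, 3 and 3 in those settings, 2 with DESeq2, 0 with library totals and 2 with no filter. The 3-fold threshold and the rule over all named clusters also took endothelial-like cells into the matrix-producing class. The interaction gave 6 at the higher resolution. Endothelial-like cells gave 20 at 3 d.p.i. at the higher resolution and 5 at 14 d.p.i. with DESeq2. Cardiomyocyte-like cells gave 4 at 3 d.p.i. with DESeq2 and 0 at 14 d.p.i. with library totals, and leukocyte-like cells at 14 d.p.i. gave 2 and 0 with the same tools.

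Replicate numbers did not pair the samples: in no class did every same-numbered pair correlate above 0.1. With the replicate block, zebrafish counts became 2 in matrix-producing cells at 14 d.p.i., 5 and 0 in cardiomyocyte-like cells at 3 and 14 d.p.i. and 0 in leukocyte-like cells at 14 d.p.i. With the replicate block, medaka counts became 6 and 0 in matrix-producing cells at 3 and 14 d.p.i., 1 in endothelial-like cells at 14 d.p.i. and 0 in cardiomyocyte-like cells at 14 d.p.i.

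Leaving out each sample in turn, zebrafish counts ranged over 35 to 39 against endothelial-like, 42 to 46 against cardiomyocyte-like and 34 to 41 against leukocyte-like cells, 2 to 27 for the interaction, 22 to 42 and 0 to 6 in matrix-producing cells at 3 and 14 d.p.i., 13 to 27 and 1 to 25 in endothelial-like, 0 to 17 and 0 to 6 in cardiomyocyte-like, and 0 to 17 and 0 to 2 in leukocyte-like cells. Medaka counts in the same order ranged over 21 to 33, 29 to 38, 27 to 34, 0 to 0, 6 to 17 and 0 to 1, 28 to 38 and 1 to 3, 1 to 3 and 0 to 1, and 17 to 23 and 0 to 1.

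Reversed values of named members, without the zebrafish time contrasts of endothelial-like, cardiomyocyte-like and leukocyte-like cells, were as follows on the log2 scale. With library totals, zebrafish *sec23a* against cardiomyocyte-like cells was 0.14, and in medaka the same contrast gave *sec22bb* 0.195, *sec31b* 0.22, *sec63* 0.32, *ssr1* 0.205 and *tmed10* 0.405. Without zebrafish uninjured replicates 3 and 4, *sec23b* at 3 d.p.i. was -0.75, and at 14 d.p.i. *arf5* was -0.086 and *sec61a1* -0.39. At the higher resolution in medaka, *copa* was 0.14, *sec14l1* 0.12 and *sec23b* 0.017 against endothelial-like cells, and *copa* 0.004 against leukocyte-like cells. With the 3-fold threshold *copa* was 0.067 and *sec23b* 0.014 against endothelial-like and *copa* 0.045 against leukocyte-like cells. The settings without replicates 3 and 4 and with the matrix rule over all named clusters were chosen after seeing the data.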
